A study of Mus musculus with 21 samples.

Results

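Mouse miR-224 and miR-338 are 2 unrelated microRNA hairpins, each giving a 5p and a 3p mature arm. The 4 mature arms, mmu-miR-224-5p, mmu-miR-224-3p, mmu-miR-338-5p and mmu-miR-338-3p, were taken by name from the 1556 mature miRNA entries of the table, and they were chosen by their levels in the Sertoli and PTM libraries, where earlier results of these data had placed them high in Sertoli cells. Small RNA libraries of Sertoli cells, peritubular myoid (PTM) cells, Leydig cells and germ cells of the testis, and of smooth muscle cells from vessels (VSMC), intestine (ISMC) and trachea (TSMC), were compared, with 3 libraries for each of the 7 types. All 7 types were primary cells of the C57BL/6J strain, untreated, and kept in DMEM/F12 with 10% fetal bovine serum, so no group carries an allele or an agent that another lacks. The testicular cells were isolated by published procedures and the smooth muscle-like cells were bought from a supplier, so tissue and source of the cells cannot be told apart between those sets. No label states an age, a passage number or a number of animals, or whether libraries of 1 type are separate cultures. The p-values below measure the spread between these samples, which may be technical.

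A miRNA gene is transcribed as a hairpin that is cut to a short duplex, and 1 arm of the duplex is usually kept in an Argonaute protein, where its seed near the 5′ end pairs with target mRNAs. miR-224 is best known in the gonad from mouse ovarian granulosa cells, the female counterparts of Sertoli cells, where TGF-beta raises it and it represses Smad4. miR-338 is best known in the brain, where it promotes the maturation of oligodendrocytes together with miR-219. Sertoli cells line the seminiferous tubule and nurse the germ cells, PTM cells form the contractile layer around the tubule, and Leydig cells make androgen between the tubules.

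The mature sequences are shown because the seed, in capitals (bases 2 to 8), sets what each arm can pair with, and because the arms of a hairpin carry different seeds. They are RefSeq sequences of the GRCm38.p6 assembly, 5′ to 3′, and all 4 members were matched by name.
miR-224-5p: uAAGUCACuagugguuccguu
miR-224-3p: aAAUGGUGcccuagugacuaca
miR-338-5p: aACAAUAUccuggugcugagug
miR-338-3p: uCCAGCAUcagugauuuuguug
The 4 seeds differ from each other, and no other mature mouse miRNA in that RefSeq set shares any of them. Of the 1556 mature entries of the table, 1326 were matched to that set. None of the 4 arms has a seed family among those, and the seeds of the unmatched entries were not compared.

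The hairpins are shown with both arms in capitals, since the measurements below weigh the arms against each other.
Mir224: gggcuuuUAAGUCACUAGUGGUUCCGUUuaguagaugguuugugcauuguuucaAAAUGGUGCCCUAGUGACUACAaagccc
Mir338: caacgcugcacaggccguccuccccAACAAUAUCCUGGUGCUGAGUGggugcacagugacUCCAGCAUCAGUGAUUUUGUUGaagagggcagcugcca
In GRCm38 (GENCODE vM21), Mir224 lies on the minus strand at chrX:72261031-72261112, in an intron of Gabre, which encodes the epsilon subunit of the GABA-A receptor and is transcribed from the same strand. Of 3 annotated Gabre transcripts, 1 spans the hairpin, and 0 exons overlap it. Mir338 lies on the minus strand at chr11:120014765-120014862, in an intron of Aatk, a kinase gene of the same strand, in 6 of its 9 transcripts.

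Germ cell libraries were shallow for miRNAs, with 0.525 to 0.958 M mature counts (M, 1e6) against 4.04 to 14.6 M in the other 18 libraries. Values are counts per 1e6 mature counts (CPM) of the library unless stated otherwise, as mean ± SD of 3 libraries. A summed count of 0 in a type allows up to 3 counts, which is 1.33 CPM in germ cells and 0.0753 to 0.141 CPM in the other types, for counting error only. The label check of the cells by marker miRNAs was mixed. The pair of miR-202 arms, which marks gonadal somatic cells, summed to 653 ± 328 CPM in Sertoli cells, but to 1063 ± 167 in PTM cells, 449 ± 229 in Leydig cells and 310 ± 168 in germ cells, against 0.318 to 0.888 in the 3 smooth muscle types. It therefore separated testis from smooth muscle and did not single out Sertoli cells. The smooth muscle miRNAs miR-143 and miR-145a summed to 37230 ± 8202 CPM in Sertoli cells, above 22085 ± 2204 in PTM cells and 10534 to 17811 in the smooth muscle types. Germ cell markers miR-34b, miR-34c and miR-449 summed to 286399 ± 38541 CPM in germ cells against 504 to 959 elsewhere, and miR-1247, seen as a Leydig miRNA in earlier results of these data, to 1031 ± 232 CPM in Leydig cells against 1.41 to 13.1 elsewhere.

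miR-224-5p was the abundant arm of its hairpin and was present in all 21 libraries. It had 67.1, 113 and 37.3 CPM in Sertoli cells (601, 1285 and 151 counts). PTM cells had 32.0, 21.1 and 21.7 CPM, Leydig cells 65.1, 60.8 and 28.1, and germ cells 15.2, 13.6 and 16.9. The means were highest in Sertoli cells, but the lowest Sertoli library, replicate 3, stood below 2 of the 3 Leydig libraries. VSMC had 47.9, 45.2 and 56.8 CPM, ISMC 27.1, 26.3 and 25.8, and TSMC 21.6, 29.9 and 33.0. By its mean the order was Sertoli cells (72.6 ± 38.3), Leydig cells (51.3 ± 20.2), VSMC (50.0 ± 6.10), TSMC (28.1 ± 5.89), ISMC (26.4 ± 0.69), PTM cells (24.9 ± 6.11) and germ cells (15.2 ± 1.66). The neighbours Sertoli, Leydig and VSMC overlapped, as did TSMC, ISMC and PTM. Only the steps between VSMC and TSMC and between PTM and germ cells were free of overlap. Within the 3 Sertoli libraries miR-224-5p ranked 165 of 998, 142 of 1083 and 212 of 874 mature miRNAs with counts.

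miR-338-5p, the abundant arm of the other hairpin, covered a wider range. It had 37.7, 80.3 and 69.0 CPM in Sertoli cells (279 to 910 counts). PTM cells had 25.4, 17.9 and 21.7 CPM and Leydig cells 2.41, 0.730 and 1.61, the Leydig values resting on 30, 7 and 20 counts. Germ cells held 2, 1 and 0 counts. Every Sertoli library was above every PTM and every Leydig library. VSMC had 3.57, 2.67 and 3.86 CPM, ISMC 27.8, 26.4 and 32.4, and TSMC 74.3, 82.3 and 60.4. The highest mean was thus in TSMC (72.3 ± 11.1), then Sertoli cells (62.4 ± 22.1), ISMC (28.9 ± 3.13), PTM cells (21.7 ± 3.78), VSMC (3.37 ± 0.62), germ cells (1.62 ± 1.97) and Leydig cells (1.58 ± 0.84). TSMC and Sertoli cells overlapped, and after TMM scaling the Sertoli mean (77.5) lay above that of TSMC (69.9). The steps from Sertoli cells to ISMC, from ISMC to PTM cells and from PTM cells to VSMC had no overlap, although ISMC and PTM cells did overlap after TMM scaling. VSMC, germ and Leydig cells overlapped at the low end.

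**Figure D1:**
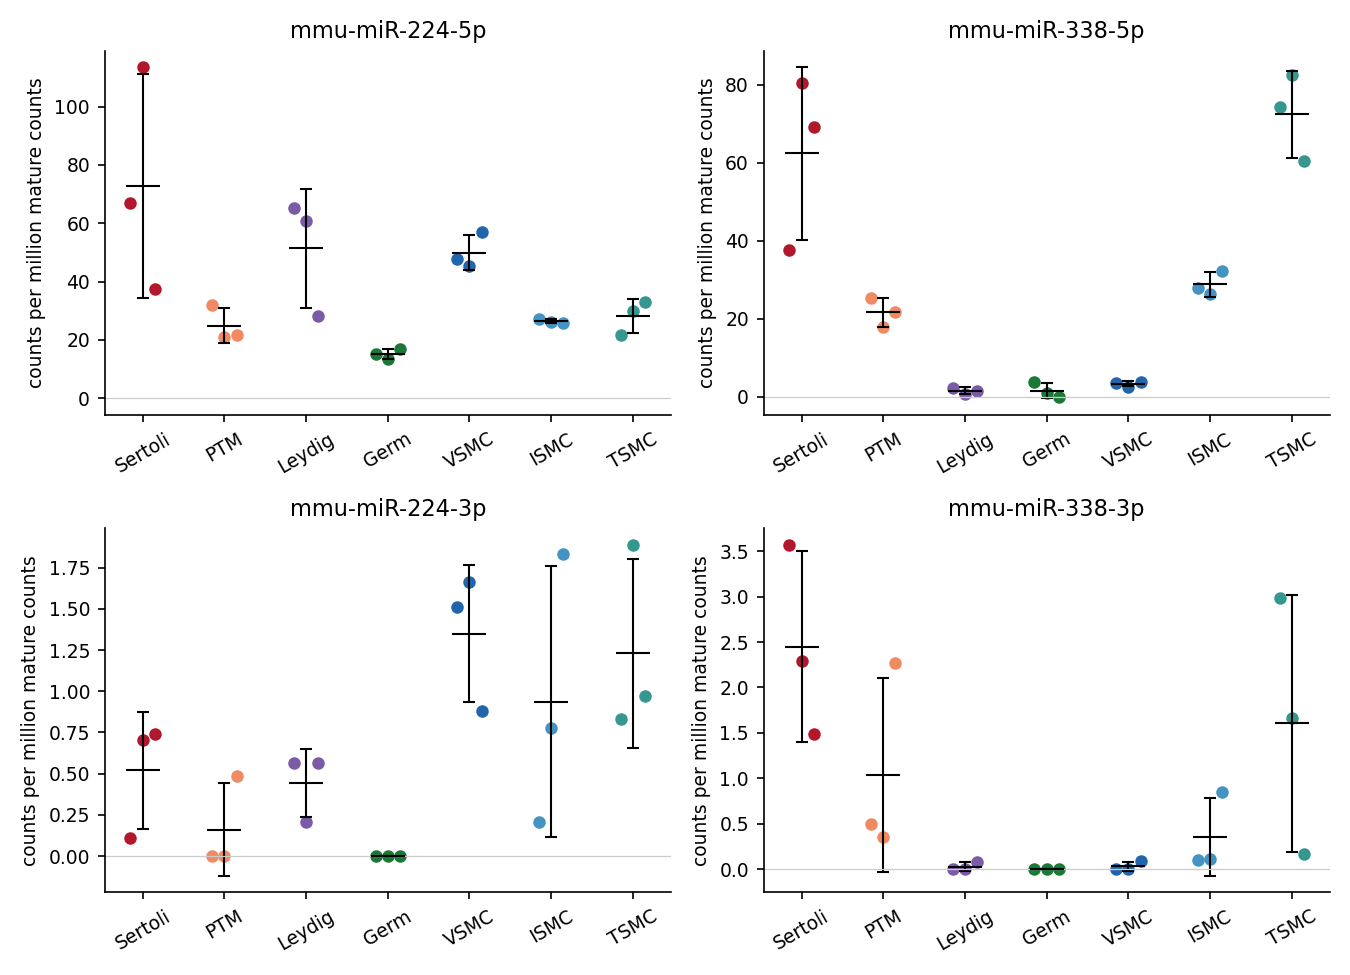
CPM of mature counts of the 4 arms in the 7 cell types, 1 point per library. miR-224-5p stayed within 13.6 to 113 CPM in all 21 libraries, while miR-338-5p averaged 62.4 CPM in Sertoli cells and 72.3 CPM in TSMC and stayed at 3.86 CPM or less in VSMC, Leydig and germ cells.

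The 3p arms were rare. miR-338-3p had 32, 26 and 6 counts in the 3 Sertoli libraries (2.45 ± 1.05 CPM) and 4, 3 and 14 in PTM cells (1.04 ± 1.07 CPM). It had 18, 15 and 1 counts in TSMC (1.60 ± 1.41 CPM) and 1, 1 and 6 in ISMC, but summed to 1 count in Leydig cells, 1 in VSMC and 0 in germ cells. The 4 types highest in miR-338-5p were thus the 4 with the most counts of its partner, although the 0 of germ cells allows 1.33 CPM, above the means of PTM cells and ISMC. Within PTM cells and TSMC 1 library departed far from the other two. miR-224-3p did not have its highest level in Sertoli cells. It had 1, 8 and 3 counts there (0.52 ± 0.35 CPM), 0, 0 and 3 in PTM cells, 7, 2 and 7 in Leydig cells (0.44 ± 0.20 CPM) and 0 in all germ libraries. VSMC held 22, 23 and 10 counts (1.35 ± 0.41 CPM), ISMC 2, 7 and 13, and TSMC 5, 17 and 6 (1.23 ± 0.58 CPM). All neighbours in its order overlapped. At 1.33 CPM, the level that a count of 0 allows in germ cells is above the Sertoli mean of miR-224-3p, so a difference between those types was not detectable at this depth.

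Set against the other types, the Sertoli level gives a description only, since it chose the members. The Sertoli mean of miR-224-5p was 2.92 times that of PTM cells (log2 ratio 1.54 ± 0.84, SD), 2.75 times that of ISMC (1.46 ± 0.76) and 2.58 times that of TSMC (1.37 ± 0.82). It was 1.41 times that of Leydig cells (0.50 ± 0.95) and 1.45 times that of VSMC (0.54 ± 0.78), both within the spread. The Sertoli mean of miR-338-5p was 2.88 times that of PTM cells (1.53 ± 0.57), 39.4 times that of Leydig cells (5.30 ± 0.92), 18.5 times that of VSMC (4.21 ± 0.58) and 2.16 times that of ISMC (1.11 ± 0.53), but 0.862 times that of TSMC (-0.21 ± 0.56). Sertoli libraries lay above the other type without overlap for 2 of the 4 arms against PTM cells (4.49% of the 846 miRNAs tested did so), 2 against Leydig cells (15.5%), 4 against germ cells (26.4%), 2 against VSMC (21.2%), 3 against ISMC (20.2%) and 1 against TSMC (19.9%). Against PTM cells 1 arm, miR-338-5p, remained after TMM scaling and per tag of all classes, where miR-224-5p overlapped. Per tag of all classes miR-224-5p overlapped ISMC and TSMC too. Against germ cells the 3p arms count only because germ cells held 0, and their Sertoli levels reached no more than 3.57 CPM, where a count of 0 in a single germ library allows 3.13 to 5.72 CPM. miR-224-3p lay wholly below VSMC and below TSMC. No member was above all 6 other types without overlap, which 0.709% of the miRNAs tested were.

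Of the marker lists of other tissues, only the smooth muscle and striated muscle sums were higher in Sertoli cells than in the 3 other testicular types, and their part in the members' levels was not tested. The striated muscle miRNAs (miR-1a, miR-133a, miR-206 and miR-499) summed to 814 ± 215 CPM in Sertoli cells (690 to 1063), 274 ± 38.1 in PTM cells, 43.8 ± 37.4 in Leydig cells and 340 ± 61.8 in germ cells, and to 631 to 866 in the smooth muscle types. Its members ran opposite ways, with miR-133a-3p at 561 CPM in Sertoli cells against 3.50 to 8.55 in the smooth muscle types and miR-206-3p lower in its Sertoli mean than its 625 to 833 CPM in the smooth muscle types. The epithelial list (miR-200 family, miR-141, miR-429 and miR-205) summed to 148 ± 77.1 CPM in Sertoli cells, 166 ± 99.9 in PTM cells, 21.2 ± 2.58 in Leydig cells and 921 ± 69.7 in germ cells, against 9.52 to 13.2 in smooth muscle. The endothelial miR-126a arms summed to 271 ± 19.6 CPM in Sertoli cells, 1406 ± 302 in PTM cells, 188 ± 125 in Leydig cells and 1014 ± 609 in germ cells. The 6 blood miRNAs summed to 1679 ± 478 CPM in Sertoli cells, 3162 ± 574 in PTM cells, 1878 ± 411 in Leydig cells and 990 ± 150 in germ cells. The list of oligodendrocyte and neural miRNAs holds miR-219, named above with miR-338, beside miR-124, miR-9 and miR-137. It summed to 5.28 ± 3.85 CPM in Sertoli cells, where 1 of 6, miR-137-3p, was at 0. In PTM cells it summed to 4.69 ± 1.45 CPM, in Leydig cells to 4.51 ± 2.52 and in germ cells to 1556 ± 369, there mostly through miR-124-3p at 1291 CPM. miR-219a-5p had 1 count in Sertoli cells.

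**Figure D2:**
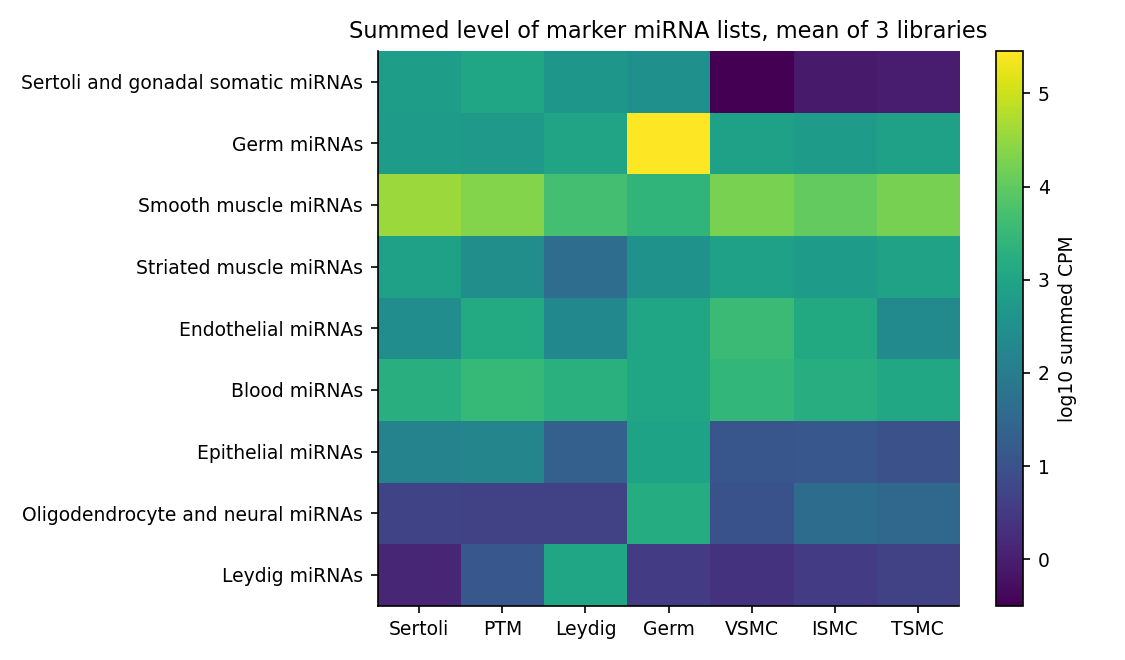
Summed CPM of the marker lists in the 7 cell types, as means of 3 libraries on a log scale. The miR-202 pair averages 0.318 to 0.888 CPM in the smooth muscle types and 310 to 1063 CPM in the testicular types, and the smooth muscle miRNAs are highest in Sertoli cells.

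Tests were confined to types that did not choose the members, in 1 edgeR quasi-likelihood fit with Benjamini-Hochberg adjustment over 846 miRNAs. All 4 members passed the filter of at least 10 counts in at least 3 libraries, but miR-338-3p did so only through the Sertoli and PTM libraries that chose it. It reached 10 counts in 3 of those and in 2 of the other 15, both TSMC, and did not enter a fit of these 15 alone. For it, counts, rate ratios and arm ratios are therefore given without a p-value. Leydig cells differed from smooth muscle in opposite directions for the 5p arms. miR-224-5p was higher in Leydig cells than in the mean of the 3 smooth muscle types (log2 fold change 1.21 ± 0.36 SE, adjusted p = 0.0097), and miR-338-5p was lower (-2.94 ± 0.49, adjusted p = 4.14e-05). In that comparison 42.6% of the miRNAs tested were called, 27.7% higher (234) and 14.9% lower (126) in Leydig cells. The 2 called members, of 3 given a p-value, are too few to tell from that background. miR-224-3p did not pass (-0.68 ± 0.74, adjusted p = 0.482). miR-338-3p had 1 count in Leydig cells against 43 in smooth muscle (rate ratio 0.0587, 95% counting interval 0.00145 to 0.345).

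Both calls depended on the smooth muscle type or the scaling. miR-224-5p in Leydig cells was not called against VSMC alone (0.62, adjusted p = 0.312) and was higher than in ISMC alone (1.57, adjusted p = 0.0149) and TSMC alone (1.43, adjusted p = 0.0253). For miR-338-5p the difference from VSMC alone was -0.44 (adjusted p = 0.524), against -3.50 from ISMC (adjusted p = 4.2e-05) and -4.87 from TSMC (adjusted p = 1.28e-06). The miR-224-5p call was also lost with RLE scaling (0.73, adjusted p = 0.0599), with unscaled library totals (0.62, adjusted p = 0.103), with tags of all classes as library size (0.74, adjusted p = 0.151), without the count filter (0.92, adjusted p = 0.0805) and without Leydig replicate 1 (0.94, adjusted p = 0.0919). The scaling moved the median of all miRNAs tested, at 0.09 with TMM, -0.33 with RLE and -0.46 with library totals, and the split of calls to 191 higher and 218 lower with RLE and 169 higher and 238 lower with library totals. Relative to that median miR-224-5p stood 1.11, 1.06 and 1.08 higher in Leydig cells under the 3 scalings.

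Within smooth muscle, miR-338-5p separated the vascular cells from both others. It was lower in VSMC than in ISMC (-3.06 ± 0.52, adjusted p = 0.0031), a comparison in which 1.30% of miRNAs were called, 11 lower and 0 higher in VSMC. By p it was the 2nd of all miRNAs tested there. It was lower in VSMC than in TSMC too (-4.43 ± 0.55, adjusted p = 1.9e-05), where 3.31% were called, 1.18% higher (10) and 2.13% lower (18), and it came 3rd by p. The VSMC to TSMC call held in all 28 other settings of scaling, filter, tool and libraries (-4.58 to -3.82). The VSMC to ISMC call was lost without VSMC replicate 2 (-2.87, adjusted p = 0.0671), where edgeR called 0 miRNAs and 83 had an unadjusted p under 0.05. ISMC and TSMC were not called different by this test (-1.37 ± 0.49, adjusted p = 0.275), where 0.946% passed, 0.827% higher and 0.118% lower in ISMC, whereas DESeq2 called them (-1.42, adjusted p = 0.00799).

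Of the other arms in smooth muscle, miR-338-3p had 1 count in VSMC against 34 in TSMC (rate ratio 0.0157, 95% counting interval 0.000386 to 0.0934), with 33 of the 34 in TSMC replicates 1 and 2. miR-224-5p was not called in VSMC against ISMC (0.95 ± 0.47, adjusted p = 0.388), VSMC against TSMC (0.81 ± 0.47, adjusted p = 0.307) or ISMC against TSMC (-0.14 ± 0.47, adjusted p = 1). miR-224-3p passed in none of the 3 comparisons (adjusted p = 0.793 to 0.975). The neural list moved with miR-338-5p in VSMC, at 9.89 ± 0.59 CPM (9.46 to 10.6) against 40.4 ± 6.56 in ISMC (34.3 to 47.4) and 33.2 ± 5.96 in TSMC (29.7 to 40.1), mostly through miR-9-5p at 7.54, 35.8 and 28.3 CPM. miR-9-5p was itself lower in VSMC than in ISMC (-2.23 ± 0.47, adjusted p = 0.0189), whereas miR-219a-5p had 7, 1 and 4 counts in VSMC, ISMC and TSMC. The endothelial miR-126a arms ran the other way, at 3619 ± 240 CPM in VSMC against 1330 ± 174 in ISMC and 213 ± 58.9 in TSMC. The part of neural or endothelial cells in these differences was not tested.

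Germ cells had less of both 5p arms than smooth muscle. miR-224-5p was lower in germ cells (-1.89 ± 0.46, adjusted p = 0.00108), where 67.6% of all miRNAs were called, 26.4% higher (223) and 41.3% lower (349). The median of all miRNAs tested was itself at -1.35, so miR-224-5p stood 0.54 below it, and 0.48 to 0.67 below it under RLE scaling, library totals and tags of all classes. miR-338-5p had 3 counts in germ cells against 2435 in smooth muscle, where the smooth muscle rate would give 63.1 counts (rate ratio 0.0475, 95% counting interval 0.0098 to 0.139, adjusted p = 1.8e-06). Its log2 fold change stood 3.31 below the median of all miRNAs tested. Most of the 2435 counts came from ISMC (739) and TSMC (1563), with 133 in VSMC. VSMC and germ cells overlapped in CPM (means 3.37 and 1.62), and after TMM scaling their means were 3.24 and 0.676. Both calls held in all 28 other settings. The 3p arms held 0 counts in germ cells, where the smooth muscle rate would give 2.72 counts of miR-224-3p and 1.11 of miR-338-3p, so no difference was detectable at this depth. The fit nevertheless called miR-224-3p (adjusted p = 0.039), a call lost in 8 of those 28, among them RLE scaling (0.103) and each of the 3 germ libraries left out (0.0932 to 0.147). With it, the 3 members given a p-value were called lower, where 41.3% of all miRNAs were.

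Against Leydig cells, germ cells also had less miR-224-5p (-3.09 ± 0.53, adjusted p = 3.16e-05). In that comparison 63.2% of miRNAs passed, 20.9% higher (177) and 42.3% lower (358) in germ cells, with a median of -2.14 over all miRNAs tested. miR-224-5p stood 0.95 below the median with TMM, 0.92 below it with RLE and 0.94 below it with library totals. miR-338-5p had 3 counts in germ cells against 57 in Leydig cells, a rate ratio of 0.805 whose 95% counting interval (0.161 to 2.48) includes equal rates. Its adjusted p of 0.0477 was lost in 23 of the 28, 17 of them with 1 library left out, and reached 0.725 with RLE scaling. miR-224-3p did not pass (adjusted p = 0.102).

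**Figure D3:**
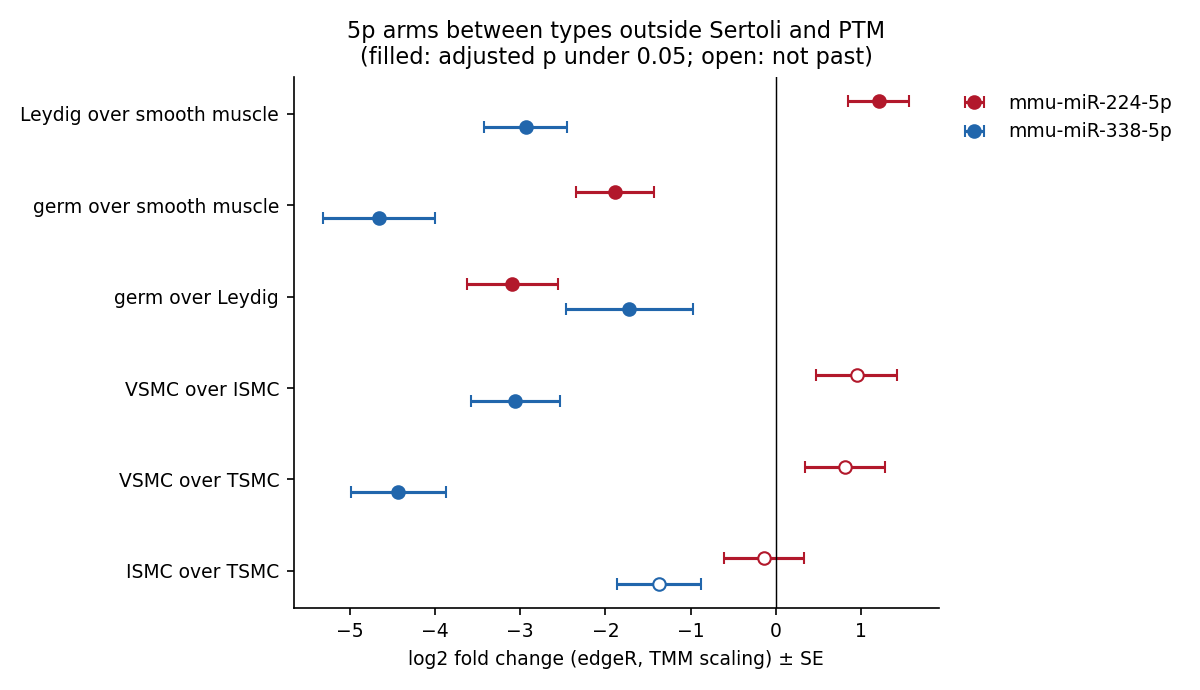
Log2 fold changes of miR-224-5p and miR-338-5p in the 6 comparisons, from the edgeR fit, with bars of 1 standard error. miR-338-5p lies at -2.94 in Leydig cells against smooth muscle and at -4.43 in VSMC against TSMC, while miR-224-5p lies between -0.14 and 1.21 in the 4 comparisons without germ cells.

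The balance of the arms is free of library scaling, because both arms of a hairpin were counted in the same library. The 3p arm made up 1.75% of all miR-224 counts and 2.78% of all miR-338 counts (129 of 4645). For miR-224 its share was 0.586% in Sertoli cells (exact 95% interval 0.303 to 1.02), 0.519% in PTM cells (0.107 to 1.51) and 0.910% in Leydig cells (0.521 to 1.47), against 3.12% in smooth muscle (2.56 to 3.77). With counts summed it was 2.71% in VSMC, 3.12% in ISMC and 4.44% in TSMC, but single libraries overlapped. Replicate 3 had 1.95% in Sertoli cells, 2.19% in PTM cells and 1.97% in Leydig cells, against 0.749% in ISMC replicate 1 and 1.52% in VSMC replicate 3. All 3 PTM counts of miR-224-3p came from replicate 3. In germ cells it was 0 of 34 counts, which allows a share of up to 8.82%. Leydig cells exceeded smooth muscle in the log2 ratio of 5p to 3p by 1.77 (exact two-sided permutation test, p = 0.0182, 0.0545 adjusted over 6 tests), which misses the threshold. The adjusted p was 0.0364 with a pseudocount of 1 in place of 0.5, where the difference was 1.71, and also without VSMC replicate 3 or without ISMC replicate 1. These adjusted values were computed together with the miR-338 tests, whose low p-values rest on the pseudocount. No call is therefore drawn from them.

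For miR-338 the 3p share was 4.02% in Sertoli cells (3.11 to 5.11), 4.08% in PTM cells and 1.74% in smooth muscle. The Sertoli libraries gave 8.65, 2.78 and 2.11% and the PTM libraries 1.90, 1.91 and 9.46%, so 1 library in each type carried the higher share. Leydig cells had 1.72% with a wide interval (0.0436 to 9.24). The log2 ratio of 5p to 3p differed by -1.68 in Leydig cells against smooth muscle, and by -2.01 with a pseudocount of 1. No p-value is given, since miR-338-3p passed the count filter only through the Sertoli and PTM libraries. With 1 Leydig count of miR-338-3p this ratio also rests on the pseudocount, and the summed shares are nearly equal. In germ cells the log2 ratio differed from smooth muscle by -4.91, but with 3 germ counts in all that ratio rests on the pseudocount. With so few counts it could not have come near the smooth muscle ratios, so the comparison cannot decide on the arms. In germ cells against Leydig cells the exact permutation test cannot go below p = 0.1 with 3 libraries a type.

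**Figure D4:**
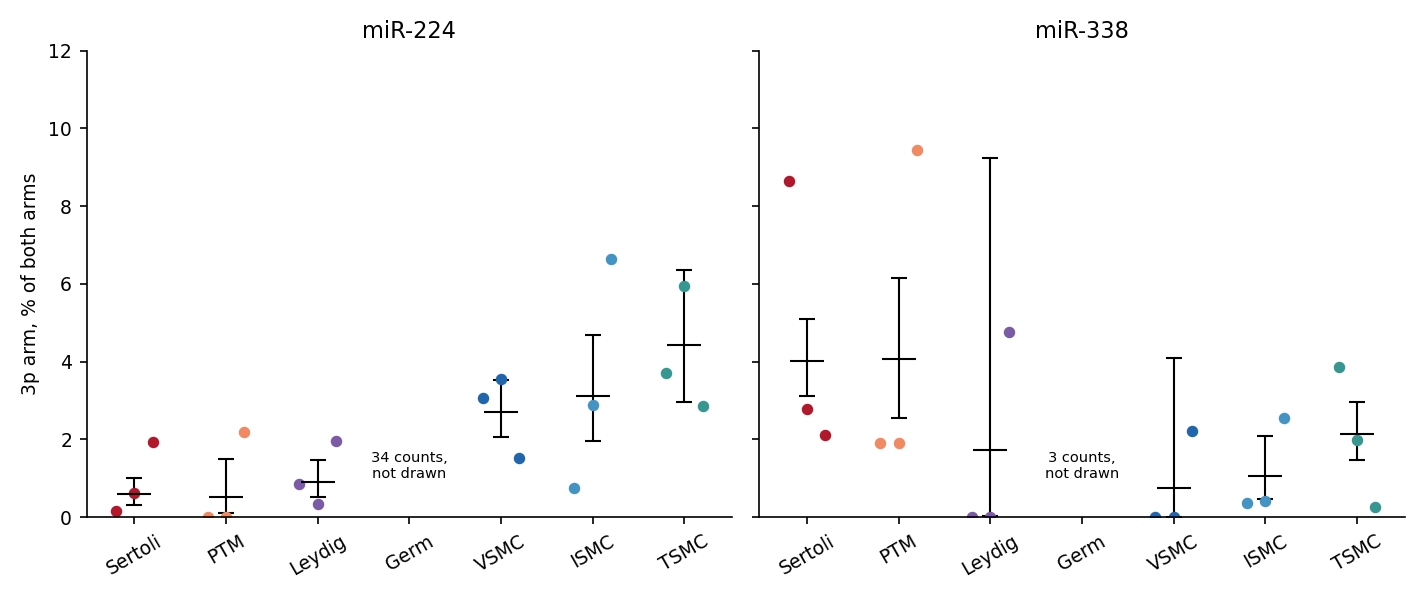
Share of the 3p arm among both arms of miR-224 and miR-338 in percent, per library and cell type. With libraries summed, the miR-224 share is 0.519 to 0.910% in Sertoli, PTM and Leydig cells and 2.71 to 4.44% in the 3 smooth muscle types.

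The arms of neighbouring hairpins measured here were rare in all libraries. Mir452 lies 1111 bases from Mir224 in Gabre, and miR-452-3p had 0 to 3 counts per library. miR-452-5p is not analysed here. Mir3065 is annotated on the plus strand at chr11:120014767-120014853, opposite Mir338. Its 5p arm is shown because it overlaps miR-338-3p by 21 bases on the opposite strand.
miR-3065-5p: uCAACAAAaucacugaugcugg
It had 0 to 4 counts per library. miR-3065-3p had 0, 12 and 15 counts in Sertoli cells (1.59 CPM) and 2, 6 and 7 in TSMC (0.710 CPM), and averaged 0 to 0.358 CPM in the other types. Whether the counting used strand is not stated, so reads of the opposing hairpins may not be fully told apart.

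As a description, the arms of miR-338 had higher correlations across types than those of miR-224. Over the 7 type means of log2(CPM + 1), miR-338-5p and miR-338-3p had a Pearson correlation of 0.88, and over the 21 libraries 0.73. miR-224-5p and miR-224-3p gave 0.46 and 0.29, and the 5p arms of the 2 hairpins 0.16 and 0.14. These values are descriptions over points that share library depth and the spread of germ and Leydig cells. They include the Sertoli and PTM libraries that chose the members and through which alone miR-338-3p passed the count filter. miR-224-3p had no more than 1.89 CPM in any library, so its correlations rest on few counts. Of the other tested miRNAs, miR-3098-3p (0.94), miR-29a-5p (0.87) and let-7a-2-3p (0.85) were the most like miR-224-5p over the 7 types, all under 15 CPM in every type. Those most like miR-338-5p were miR-6910-5p (0.97), miR-7020-5p (0.93) and miR-504-3p (0.93). miR-6910-5p and miR-7020-5p averaged no more than 2.54 CPM in any type. miR-504-3p averaged 15.7 CPM in Sertoli cells, 0.215 in Leydig cells and 35.1 in TSMC. For miR-338-3p it was miR-1a-3p (0.96), a striated muscle miRNA, at 20.6 CPM in Sertoli cells, 5.33 in PTM cells, 0.533 in Leydig cells and 6.00 in TSMC. For miR-224-3p it was miR-29a-3p (0.98). Of the 5 named by this rule for each arm, 2 were also among the 5 most alike over the 21 libraries, for every arm.

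The wider set of gonadal somatic miRNAs and miRNAs linked to TGF-beta or androgen had 13 entries in the table, of which 11 were tested. In Leydig cells against smooth muscle 6 were called higher and 2 lower, where 27.7% of all miRNAs tested were higher and 14.9% lower, with a median of 1.55 against 0.09 over all. Among them miR-202-3p, a gonadal somatic miRNA, was higher (11.08 ± 0.71, adjusted p = 1.26e-10), miR-132-3p, a cAMP-responsive miRNA, was higher by 2.95 ± 0.37, and miR-140-5p, a cartilage-associated miRNA, was lower (-2.62 ± 0.45). In germ cells against smooth muscle 4 were higher and 4 lower, where 26.4% of all were higher and 41.3% lower (median -0.98 against -1.35 over all), with miR-375-3p at 11.09 ± 0.37. In germ cells against Leydig cells 3 were higher and 6 lower, where 20.9% of all were higher and 42.3% lower (median -2.21 against -2.14 over all). Both germ cell counts lie near these shares. Within smooth muscle 0 of the 11 passed in edgeR in VSMC against ISMC and in ISMC against TSMC, where 1.30% and 0.946% of all miRNAs tested passed. So 0 of 11 is near these shares. An unadjusted p under 0.05 was held by 6 and 3 of the 11, and by 113 and 79 of all 846. Against TSMC, 2 of the 11 were lower in VSMC, miR-383-5p (-3.27 ± 0.67, adjusted p = 0.0054) and miR-471-3p (-3.37 ± 0.88, adjusted p = 0.0317), where 2.13% of all were lower.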

How the data were processed

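The authors deposited 1 table of 61628 small RNA entries with whole-number counts and TPM for each library, of which 1556 entries are mature miRNAs. Per the submitters' processing notes, Bowtie2 and mm10 were used, whose versions and settings no source here states. The deposited TPM are counts per 1e6 tags of all classes, with 0 written as 0.001, and served only to read the total tags of a library. Counts were scaled to CPM of mature counts. The 846 miRNAs that reached 10 counts in 3 or more libraries were tested in edgeR 4.0.16 (R 4.3.3) with TMM scaling and the robust quasi-likelihood F-test. A single model held the 21 libraries and a mean for each cell type, which left 14 residual degrees of freedom, and calls were made at adjusted p under 0.05. Sertoli and PTM libraries entered the fit but no test. Arm ratios were tested by exact two-sided permutation with 0.5 added to each arm. Those of miR-338 entered the adjustment over 6 tests, but their p-values are not given. Rate ratios use exact 95% intervals. Alternatives were DESeq2 1.42.0, RLE and unscaled totals, tags of all classes, no filter, a replicate block and each library left out. Single smooth muscle types were chosen after seeing the data. The members, lists and tests were chosen with earlier results of these data known. miRNAs named are the members, their locus and seed neighbours, the lists and the 5 miRNAs most alike by Pearson correlation over type means. Counting intervals and floors treat reads as molecules and cover counting error only.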

Additional observations from a re-analysis of the deposited data

How the results depend on the processing

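Calls in VSMC against ISMC numbered 11, but 3 with tags of all classes, 41 with DESeq2, 5 with a replicate block and 0 to 13 with 1 library left out (0 to 6 without any 1 VSMC or ISMC library, Leydig replicate 3 or TSMC replicate 3). Calls in VSMC against TSMC (28) became 46 with tags of all classes, 114 with DESeq2 and 13 to 43 with 1 library left out (43 without germ replicate 3, 13 to 16 without VSMC replicate 1 or 2 or TSMC replicate 1 or 3), and those in ISMC against TSMC (8) became 33 with DESeq2 and 5 to 9 with 1 library left out (5 without TSMC replicate 1 or 3). Whether the replicate numbers pair the samples is not stated. The mean correlation of same-numbered deviations was 0.0017, and 8 of 21 libraries were closest to their own number, which cannot exclude a pairing. The block also ended the miR-338-5p call of germ cells against Leydig cells (adjusted p = 0.0626). The arm difference in Leydig cells against smooth muscle was 1.71 with 1 count added and 1.19 to 2.36 with 1 library left out for miR-224, and -2.01 with 1 count added for miR-338. In germ cells against smooth muscle the miR-338 value was -5.42 to -4.26 with 1 library left out. The Sertoli to germ ratio of miR-224-5p (log2 2.25) was 3.42 with TMM and 6.21 with tags of all classes. Values that were not called changed sign: miR-338-3p in Leydig cells against VSMC alone (0.52), in germ cells against smooth muscle (0.058) and against Leydig cells (2.89) with DESeq2, where edgeR gave -2.29 to 0 for the last with 1 library left out; miR-224-3p in VSMC against TSMC with RLE (-0.012), DESeq2 (-0.011) and 1 library left out (-0.069 to 0.44); miR-224-5p in ISMC against TSMC with tags of all classes (0.072) and 1 library left out (-0.27 to 0.023). The cause was not tested. Depth limits the 3p arms and all germ cell values of miR-338.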

Other observations

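An entry for the mir-338 precursor, listed apart from the mature miRNAs, had 16 counts over all 21 libraries. It was above 0 in 10 libraries and no library held more than 3 counts.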
